A study of Diplotaxodon limnothrissa and Petrotilapia genalutea and Rhamphochromis longiceps with 60 samples.

Results

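The livers of open-water and rock-dwelling cichlids of Lake Malawi were compared by RNA-seq, with the species kept apart within each habitat. Of the 60 samples of the series, 11 liver libraries entered the comparison: 5 from open-water species and 6 from rock-dwellers. The open-water species were Diplotaxodon limnothrissa (DL, 3 livers), a deep-water pelagic carnivore, and Rhamphochromis longiceps (RL, 2 livers), a pelagic fish eater. The series labels 3 RL liver libraries, and expression values were available for 2 of them. The rock-dwelling species were Maylandia zebra (MZ, 3 livers) and Petrotilapia genalutea (PG, 3 livers), which feed on algae. All fish were wild-caught adult males. Each habitat is therefore represented by 2 species, and habitat cannot be told apart from lineage, diet or sampling site. The paper reports that the fish were bought dead from fishermen. Way of capture and time since death were not examined, and their part in the differences was not tested. The genes sought were those that differed in the same direction in all 4 cross-habitat species pairs (DL against MZ, DL against PG, RL against MZ, RL against PG). With an adjusted p under 0.01 from limma required in every pair, 96 of the 16613 genes tested were called. Genes of a wider set and of gene lists, most of them outside the 96, are described as well. The rule names species and comparisons, not values, and the genes follow from the tests. No file used here pairs these genes with sequences, so no sequence is shown.

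The liver stores and releases glucose as glycogen, oxidises and makes fatty acids, makes cholesterol and exports it into bile, breaks down amino acids and secretes plasma proteins and growth factors. The diet sets the mix of protein, fat and carbohydrate that reaches it, and protein and fat prevail in the food of a carnivorous fish. Gene roles given in the text are those known from mammals, stated as background.

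Expression was given as TPM, a relative transcript abundance corrected for transcript length, which sums to an equal total in each library. TPM keeps no read counts, so the depth behind a low value is unknown, and a gene without assigned reads is described as listed at 0 TPM. Reads of every species were assigned to the transcriptome of M. zebra, which is itself one of the rock-dwellers; the effect of sequence differences between species on the values was not tested. The number of genes listed at 0 overlapped between the habitats, from 8258 to 9609 in open-water livers and from 8262 to 9665 in rock livers. Library 13 of MZ stood apart, with 10111 genes at or above 1 TPM against 12059 to 13933 in the other livers, and with 51.4% of its TPM in its top 10 genes against 22.6% to 40.7%. Of 39 hepatocyte markers 8 are listed by symbol, among them transferrin and 2 fibrinogen chains, and their summed level lay between 12047 and 36412 TPM in open-water livers and between 15756 and 39809 TPM in rock livers. The summed liver markers thus overlapped between the habitats, with the lowest sum in RL library 23, which also had the highest exocrine pancreas sum (652 TPM). By pair, 4 of the 8 liver markers were called lower in RL against PG, where 4.05% of all genes tested were called. In DL against PG 1 was called higher and 1 lower, and none was called against MZ. In the habitat contrast agt, angiotensinogen, was called lower in open-water livers (log2 difference -2.11). In agt, MZ (212 to 899 TPM) overlapped the open-water livers (109 to 485 TPM), while PG had 1976 to 4747 TPM. Of markers of other cells, rhag of red blood cells (log2 difference 2.44) and pdx1 of the endocrine pancreas (1.25) were called higher in open-water livers. mb, myoglobin, was called lower (-2.87). Other members of these lists did not follow. gata1 of red blood cells had 0 to 1.78 TPM in open-water livers against 0.175 to 6.51 TPM in rock livers. myl1 of muscle had 1.31 to 77.9 TPM against 1.44 to 4.76 TPM, and neither was called in the habitat contrast. ins, gcg and neurod1 of the endocrine pancreas had at most 0.958 TPM in any liver. The erythroid sums were 4.82 to 13.9 TPM in open-water livers against 0.481 to 7.80 TPM in rock livers, and those of skeletal muscle 1.54 to 85.5 TPM against 16.7 to 36.01 TPM.

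Differences were fitted with limma on log2(TPM + 1) over the 11 livers, and a gene was called at a Benjamini-Hochberg adjusted p under 0.01. On this scale the change of genes with low TPM is understated. DL differed from MZ in 758 genes (4.56% of those tested) and from PG in 1396 genes (8.40%). RL differed from MZ in 310 genes (1.87%) and from PG in 673 genes (4.05%). Within a habitat, DL differed from RL in 132 genes (0.795%) and MZ from PG in 228 genes (1.37%). The 4 cross-habitat pairs shared 66 genes that were higher in open-water livers in every pair (0.397%) and 30 that were lower in every pair (0.181%). In all 96 of these genes the open-water and the rock libraries did not overlap. They were chosen on these same libraries, so the lack of overlap describes the set and is no further support. Of all tested genes, 9.62% lay apart with open-water livers higher and 2.42% with open-water livers lower. A wider set comes from the habitat contrast, the mean of DL and RL minus the mean of MZ and PG. It was called with 1 sign in all 4 pairs in 1104 genes that were higher in open-water livers (6.65%) and in 516 that were lower (3.11%).

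The error in these tests is the spread between fish of a species, and the calls concern these 4 species. Over species, 2 against 2 leave 6 possible splits, so no exact 2-sided test can fall below p = 0.333. With the species means as the only replicates, limma called no gene at an adjusted p under 0.01, and the smallest adjusted p was 0.099. In that limma fit 2957 genes had an unadjusted p under 0.05, all 96 genes among them. The 96 genes were chosen from the same livers, so their place there is no further support. The number of genes also rested on single libraries. It fell to 13 higher and 12 lower without RL library 23, to 17 and 17 without RL library 24, and to 25 and 17 without MZ library 14; each RL setting leaves that species with 1 liver, whose spread is then taken from the other species. The higher genes numbered 34 without MZ library 13, 38 without MZ library 15, 35 without PG library 16, 35 without PG library 17 and 41 without PG library 18. Of the 96 genes, 6 higher and 9 lower were called whichever of the 11 livers was left out, among them pygl and trnau1ap. The median difference over all genes tested was 0.13 on the log2 scale, and quantile normalization moved it to 0.02 and size factors to -0.04. Quantile normalization called 112 genes higher and 81 lower in all 4 pairs, and 57 of the 66 and 29 of the 30 genes were called again. The share of higher genes among those called in all 4 pairs was 68.8% with TPM as deposited, 58.0% after quantile normalization and 53.7% with size factors. In the habitat contrast these shares were 68.1%, 54.1% and 46.3%, so the excess of higher genes depended on the scaling.

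Of the 66 higher genes, 24 carry a gene symbol, and of the 30 lower genes, 6. The habitat difference of the higher genes lay between 1.5 and 9.3 (median 3.0), and that of the lower genes between -8.39 and -2.23 (median -3.87), both on the log2(TPM + 1) scale.

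Among the higher genes with a symbol, the largest difference was in glycogen breakdown. pygl encodes the liver glycogen phosphorylase, which releases glucose units from glycogen. It had 63.4, 54.8 and 111 TPM in DL livers and 106 and 71.1 TPM in RL livers, against 5.05, 6.94 and 6.57 TPM in MZ livers and 1.24, 1.48 and 2.17 TPM in PG livers. The lowest open-water liver thus lay well above the highest rock liver. The habitat difference was 4.22 on the log2 scale (standard error 0.26, adjusted p = 5.19e-06 from limma). ppp1r3c, which brings a phosphatase to glycogen and so favours glycogen synthesis, was higher as well. It had 67.8, 158 and 175 TPM in DL and 198 and 159 TPM in RL, against 27.4, 28.8 and 26.6 TPM in MZ and 8.33, 19.1 and 11.2 TPM in PG (log2 difference 2.94, standard error 0.32, adjusted p = 0.000166). With 1 liver left out in turn, pygl was called in all 4 pairs in all 11 fits and ppp1r3c in 2 of them.

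The transcription factor genes of the group were cebpa and fosb. cebpa, a regulator of hepatocyte metabolic genes, had 34.2, 68.0 and 106 TPM in DL and 55.4 and 53.1 TPM in RL, against 2.79, 5.46 and 3.68 TPM in MZ and 0.910, 1.97 and 1.5 TPM in PG. Its difference was 4.11 (standard error 0.31, adjusted p = 1.93e-05). fosb, an immediate-early gene, had 18.8, 12.3 and 8.78 TPM in DL and 11.8 and 15.7 TPM in RL. In MZ it had 0.0577, 1.31 and 0.686 TPM and in PG 0.810, 1.32 and 2.70 TPM (log2 difference 2.82, standard error 0.30, adjusted p = 0.000142). hnf4a, another hepatocyte regulator and a liver marker, was called in the habitat contrast but not in every pair, with 41.2, 34.0 and 44.2 TPM in DL and 17.3 and 36.0 TPM in RL, against 10.2, 13.3 and 11.5 TPM in MZ and 5.63, 9.84 and 10.1 TPM in PG.

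Both subunits of the sterol exporter were higher. abcg5 and abcg8 encode partner proteins that together move cholesterol and plant sterols out of hepatocytes into bile. abcg5 had 12.1, 20.7 and 30.8 TPM in DL and 26.3 and 18.3 TPM in RL, against 2.48, 1.45 and 2.42 TPM in MZ and 0.502, 0.101 and 0.556 TPM in PG. abcg8 had 8.12, 13.7 and 22.7 TPM in DL and 9.86 and 13.8 TPM in RL, against 0.652, 0.905 and 1.76 TPM in MZ and 0.547, 0.360 and 0.415 TPM in PG. For both genes every open-water liver exceeded every rock liver, and the log2 differences were 3.41 (standard error 0.27, adjusted p = 2.68e-05) and 2.99 (standard error 0.27, adjusted p = 5.78e-05). fads6, a member of the fatty acid desaturase family, had 19.2, 31.6 and 56.9 TPM in DL and 26.1 and 15.5 TPM in RL, against 0.339, 0.971 and 2.2 TPM in MZ and 1.08, 0.861 and 0.428 TPM in PG (log2 difference 3.81, standard error 0.33, adjusted p = 4.34e-05).

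Another group held enzymes of small metabolites and an ion exchanger. kynu, kynureninase of the tryptophan breakdown route, had 68.0, 59.1 and 96.3 TPM in DL and 66.0 and 81.7 TPM in RL, against 8.70, 9.14 and 11.8 TPM in MZ and 5.57, 1.83 and 5.13 TPM in PG (log2 difference 3.36, standard error 0.29, adjusted p = 4.34e-05). glyctk, glycerate kinase, lay between 19.7 and 47.3 TPM in the open-water livers and between 0.821 and 3.18 TPM in the rock livers. slc9a7, a sodium/proton exchanger, was even among the open-water livers, from 20.5 to 26.9 TPM, against 0.927 to 5.11 TPM in rock livers. The remaining genes with a symbol, named here to complete the group after their values were seen, had lower levels or smaller differences. They are oplah and agmat, enzymes of glutathione turnover and of agmatine breakdown; amacr, a racemase that prepares branched fatty acids and bile acid precursors for peroxisomal oxidation; slc13a3, a dicarboxylate carrier; mocos, fahd1, galnt16, extl3, asmtl, ftcdnl1, abca3, chad, itga9 and cadm3. Their differences lay between 1.58 for extl3 and 3.07 for oplah. Of the 11 fits that left out a liver, abca3 was called in all 4 pairs in 0. agmat, ftcdnl1 and galnt16 were called so in 1, amacr and mocos in 2, and asmtl, fahd1 and itga9 in 3. extl3 was called so in 5, cadm3 in 8, oplah and chad in 9 and slc13a3 in 10. oplah and chad were nearly absent from rock livers, with at most 0.186 TPM of oplah and at most 1.36 TPM of chad, against 2.56 to 14.9 TPM and 6.68 to 11.9 TPM in open-water livers.

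**Figure D1:**
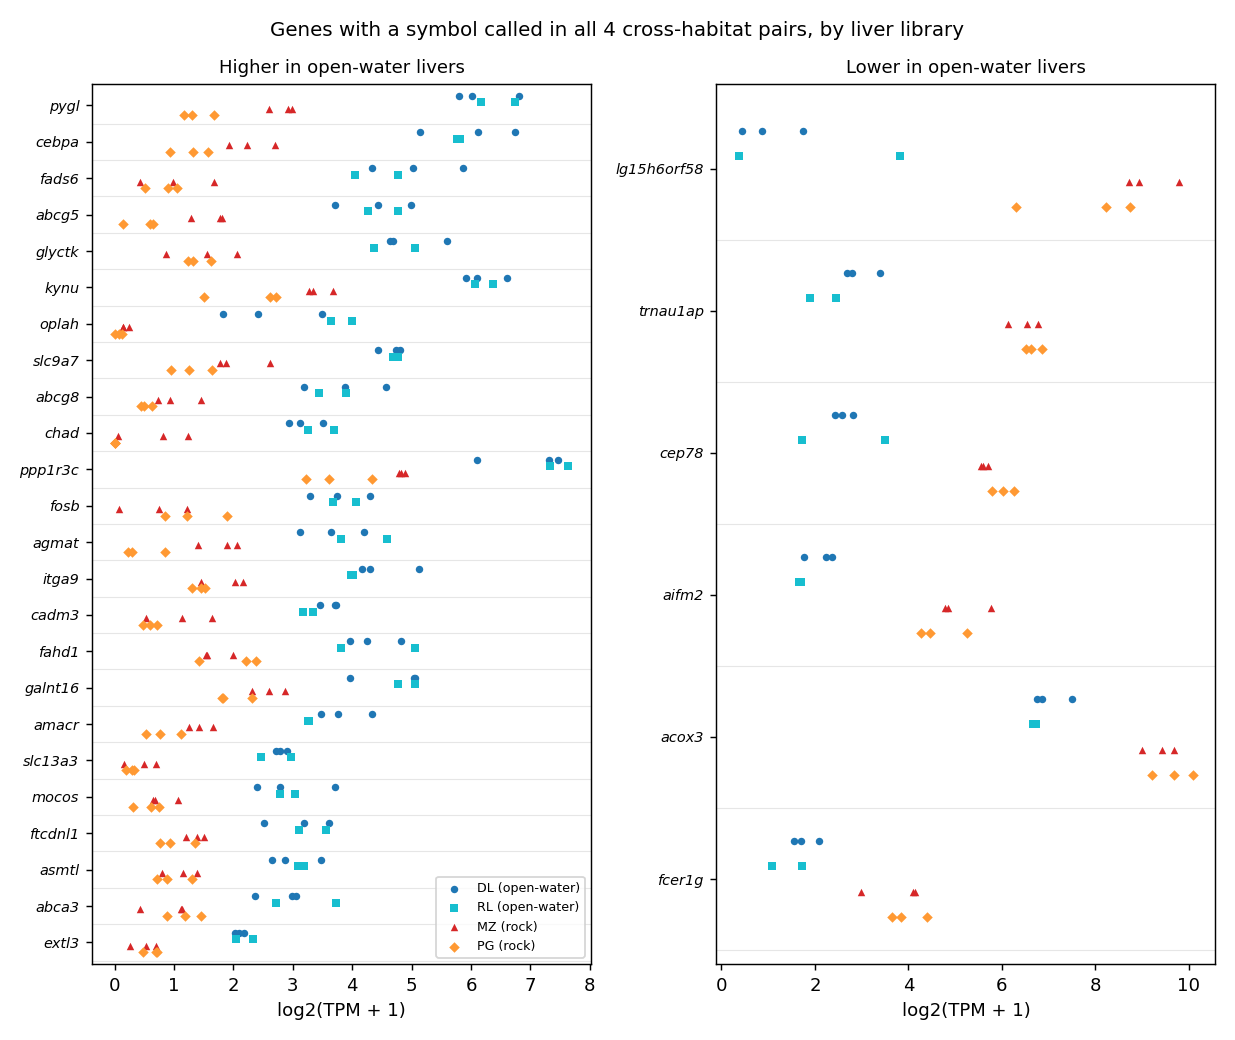
Liver level of every gene with a symbol that was called in all 4 cross-habitat pairs, on the log2(TPM + 1) scale; each point is 1 library, and colours and shapes mark the species. In the left panel the open-water points lie to the right of all rock points for each of the 24 genes, and in the right panel they lie to the left for each of the 6 genes.

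Genes that were lower in open-water livers included abundant transcripts. acox3, a peroxisomal acyl-CoA oxidase of branched-chain fatty acids, had 116, 107 and 180 TPM in DL and 101 and 106 TPM in RL, against 509, 826 and 685 TPM in MZ and 1087, 826 and 590 TPM in PG (log2 difference -2.65, standard error 0.25, adjusted p = 8.36e-05). trnau1ap, which acts in the making of selenoproteins, had 5.42, 5.90 and 9.52 TPM in DL and 2.70 and 4.49 TPM in RL, against 69.6, 92.6 and 109 TPM in MZ and 97.9, 115 and 90.6 TPM in PG (log2 difference -4.02, standard error 0.25, adjusted p = 5.45e-06). cep78, a gene of the centrosome, lay between 2.3 and 10.4 TPM in open-water livers and between 46.3 and 75.9 TPM in rock livers. aifm2, which protects membrane lipids from oxidation, lay between 2.18 and 4.15 TPM against 18.2 to 53.5 TPM. Among the lower genes with a symbol, the largest difference was in lg15h6orf58. It had 0.363, 0.819 and 2.38 TPM in DL and 13.1 and 0.299 TPM in RL, against 491, 879 and 420 TPM in MZ and 78.3, 299 and 426 TPM in PG (log2 difference -6.89, standard error 0.63, adjusted p = 6.01e-05). RL library 23 was the only open-water liver above 3 TPM of it.

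fcer1g, a signalling chain of Fc receptors in immune cells, had 3.26, 2.26 and 1.93 TPM in DL and 1.11 and 2.31 TPM in RL, against 6.95, 16.2 and 16.7 TPM in MZ and 13.4, 20.2 and 11.5 TPM in PG (log2 difference -2.26, standard error 0.29, adjusted p = 0.000440). It was called in all 4 pairs in 1 of the 11 fits that left out a liver. Of 23 immune cell markers 8 are listed, and their summed level was 18.2, 9.09 and 14.5 TPM in DL and 5.94 and 7.73 TPM in RL, against 19.3, 42.1 and 50.04 TPM in MZ and 23.9, 24.4 and 25.1 TPM in PG. The sums of the habitats did not overlap, although the highest DL and the lowest MZ liver were close. Lower calls in the habitat contrast were cd79b, a B-cell receptor chain listed at 0 in 4 of the 5 open-water livers, mpeg1 and csf1r of macrophages; the other 5 were not called. The background was 3.11% of all genes tested. With species as a random block, where 63 genes were called lower over the whole table, 1 of the 8 was called lower. Quantile normalization and size factors each called 7 of the 8 lower. They called 1226 and 1506 genes lower over the whole table, against 516 with TPM as deposited. With TPM as deposited the count of 3 was 1 without RL library 23 or 24 and 5 without MZ library 13. Exocrine pancreas markers, a tissue found within the liver of many fishes, summed to 212 to 652 TPM in open-water livers and 11.9 to 526 TPM in rock livers, and none of the 3 listed was called. In bulk tissue, fewer cells of a type and less RNA per cell cannot be told apart, and the part of these cells in the other results was not tested.

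The largest differences of all were in genes that the table gives by locus number only. LOC101485633 had 387, 784 and 444 TPM in DL and 2815 and 541 TPM in RL, against 0.125, 0.670 and 0 TPM in MZ and 0.154, 0.572 and 0.172 TPM in PG (log2 difference 9.30, standard error 0.41, adjusted p = 8.17e-07). LOC101483542 had 31.2, 33.4 and 34.6 TPM in DL and 341 and 47.3 TPM in RL, and was listed at 0 in 5 of the 6 rock livers and at 0.283 TPM in MZ library 14. LOC101484182 lay between 307 and 654 TPM in open-water livers and between 0.571 and 54.4 TPM in rock livers. LOC101477177 lay between 624 and 1635 TPM against 10.5 to 297 TPM. Its gap was set by PG library 18, the only rock liver above 50 TPM, and it was called in all 4 pairs in 2 of the 11 fits that left out a liver.

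In the other direction, LOC112436627 was listed at 0 TPM in all 5 open-water livers, against 341, 227 and 61.2 TPM in MZ and 394, 518 and 502 TPM in PG. LOC105940518 had 0.0494, 3.40 and 17.8 TPM in DL and 0 and 1.80 TPM in RL, against 1050, 1670 and 1300 TPM in MZ and 1042, 693 and 345 TPM in PG (log2 difference -8.39, standard error 0.64, adjusted p = 2.03e-05). LOC101477125 had 3.51, 1.49 and 3.20 TPM in DL and 8.16 and 19.2 TPM in RL, against 244, 212 and 255 TPM in MZ and 793, 1010 and 885 TPM in PG (log2 difference -6.04, standard error 0.28, adjusted p = 8.17e-07). Its libraries fell apart by species as well as by habitat, although neither DL and RL (adjusted p = 0.0458) nor MZ and PG (adjusted p = 0.0149) passed the threshold. Of the 66 higher genes, 5 were listed at 0 in all rock livers, and of the 30 lower genes, 3 were listed at 0 in all open-water livers. Over all genes listed, 5 were at 0 in all rock livers with at least 1 TPM in every open-water liver, and 4 the other way.

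**Figure D2:**
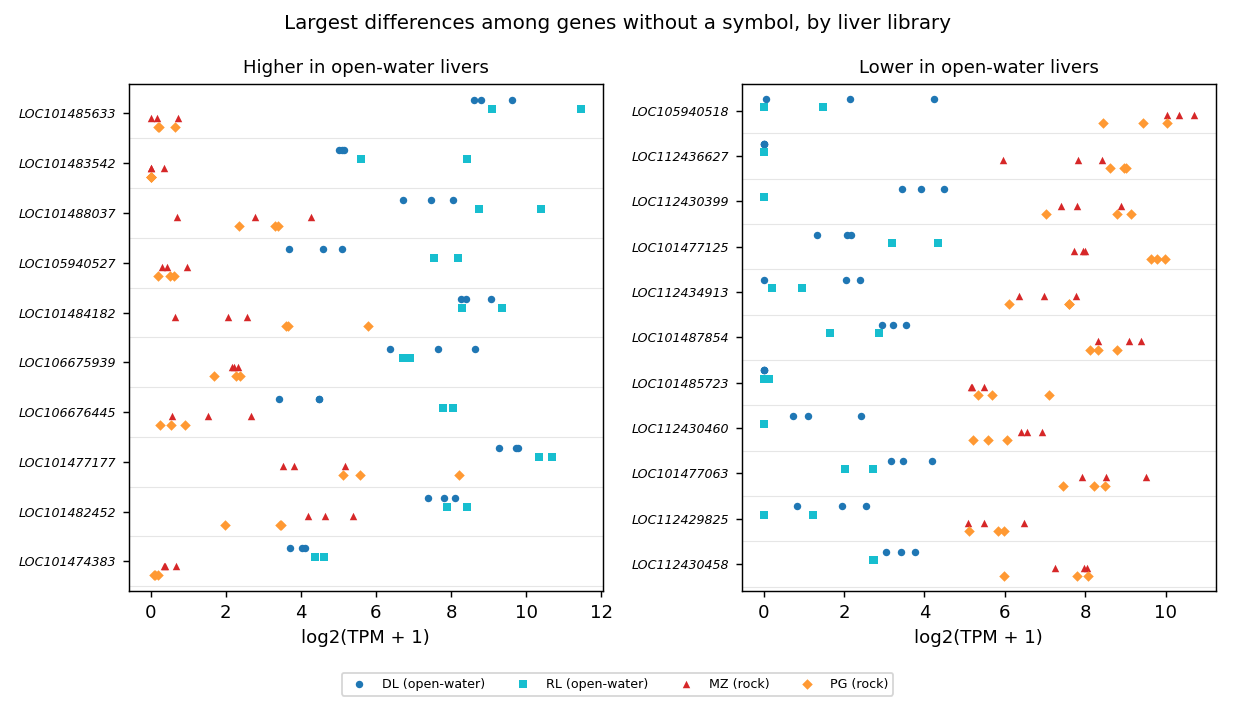
Liver level of the genes without a symbol among the 12 largest differences in each direction, on the log2(TPM + 1) scale; each point is 1 library, and colours and shapes mark the species. Open-water and rock points lie apart in every row, with LOC112436627 at 0 in all 5 open-water livers.

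The 96 genes were also compared between the species of a habitat, where the background was 0.795% for DL against RL and 1.37% for MZ against PG. Between DL and RL, 5 of the 96 were called, a larger share than the background. The 96 genes were chosen in the same fit and from the same livers, so this share only describes the set. RL was higher than DL in LOC105940527 (DL 33.1, 11.8 and 23.2 TPM, RL 290 and 185 TPM, adjusted p = 0.00198), in LOC106676445 (DL 21.4, 9.75 and 21.4 TPM, RL 262 and 221 TPM, adjusted p = 0.00485) and in LOC101482931 (adjusted p = 0.00627). DL was higher than RL in LOC101471696 (adjusted p = 0.00952), which was higher in open-water livers, and in LOC112430399, which was lower. The last had 21.3, 9.89 and 14.0 TPM in DL and was listed at 0 in both RL livers, against 129 to 558 TPM in the rock livers. None of the 96 genes was called between MZ and PG, where pygl had an adjusted p of 0.0358 and was higher in each MZ liver than in each PG liver. At a background of 1.37%, few calls would fall among 96 genes in any case, so this count says little about the set.

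Amino acid breakdown had the most called members of the gene lists examined. All lists were chosen with earlier results of these data known. Their counts therefore describe the members and are no test of a pathway. Of 41 tested members of the list, 14 were higher in open-water livers in the habitat contrast and none was lower; the remaining 27 were not called. Of all genes tested, 6.65% were called higher and 3.11% lower. By pair, 4 members were called higher in DL against MZ, 11 in DL against PG, 1 in RL against MZ and 6 in RL against PG. Of all genes tested, these pairs called 4.56%, 8.40%, 1.87% and 4.05% in either direction. Only 1 member, kynu, was called in all 4 pairs. With species as a random block, 5 members were called higher. That setting called 202 genes higher and 63 lower over the whole table, against 1104 and 516 in the main fit. The median difference of the list was 0.83, against 0.13 over all genes tested. The called genes cover several routes. For tryptophan, kynu was joined by kmo, the preceding step of the kynurenine route, with 74.8, 58.4 and 145 TPM in DL and 60.1 and 80.0 TPM in RL, against 17.7, 18.4 and 23.3 TPM in MZ and 5.99, 6.27 and 15.4 TPM in PG (log2 difference 2.49, standard error 0.33, adjusted p = 0.000552). For glycine and serine, shmt1 had 51.4, 59.3 and 106 TPM in DL and 67.7 and 33.7 TPM in RL, against 13.7, 11.1 and 15.9 TPM in MZ and 2.12, 2.06 and 2.97 TPM in PG (log2 difference 3.07, standard error 0.29, adjusted p = 7.01e-05). amt, of the glycine cleavage system, lay between 12.2 and 20.9 TPM in open-water livers and between 1.18 and 5.07 TPM in rock livers.

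The other called members of the list, outside the rule for named genes, were named after their values were seen. Branched-chain amino acids and their products are broken down with the help of bckdha, mccc1, mccc2 and pccb, and these 4 genes differed by 1.42 to 1.94. In histidine breakdown, hal and amdhd1 differed by 1.57 and 1.33. Also called were aldh4a1 of proline breakdown (82.9 to 495 TPM in open-water livers, 18.9 to 57.7 TPM in rock livers), aldh7a1 of lysine breakdown, dao, which oxidises D-amino acids, and gamt, which makes creatine. Libraries did not overlap in 13 of the 14 called genes, the exception being dao, and in 887 of the 1104 genes called higher over the whole table. The genes of the first step of phenylalanine and tyrosine breakdown, pah and tat, did not pass, with differences of -0.48 and -0.04. The count was 8 without RL library 23, 9 without MZ library 14 and 9 without PG library 17.

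Beside the members picked by rank, further called genes of the next 3 lists are given, named after their values were seen. Fatty acid oxidation and the peroxisome had 10 of 34 tested members higher and 1, acox3, lower, against 6.65% and 3.11% of all genes tested. By pair, 3 members were called higher in DL against MZ, 4 in DL against PG, 1 in RL against MZ and 4 in RL against PG. Of the list, amacr (higher) and acox3 (lower) were called in all 4 pairs. With species as a random block, where 202 genes were called higher over the whole table, 3 members were called higher. The median difference was 0.83. Among the higher genes were amacr, ehhadh, decr2, hadh and cpt2, enzymes of peroxisomal or mitochondrial oxidation; the peroxisome import factors pex5 and pex7; abcd3, a peroxisomal fatty acid carrier; and ppara, a nuclear receptor that induces this pathway. ehhadh had 42.4, 54.2 and 33.5 TPM in DL and 66.7 and 63.9 TPM in RL, against 15.6, 13.5 and 16.9 TPM in MZ and 8.75, 5.53 and 13.8 TPM in PG (log2 difference 2.09, standard error 0.27, adjusted p = 0.000461). pex5 lay between 9.52 and 18.6 TPM in open-water livers and between 1.82 and 4.65 TPM in rock livers. ppara varied more, from 28.3 to 132 TPM against 6.46 to 26.4 TPM. The count of higher genes was 4 or 5 without any of DL library 6, RL libraries 23 and 24, MZ libraries 13 and 14 and PG library 17, and 6 without PG library 16 or 18.

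**Figure D3:**
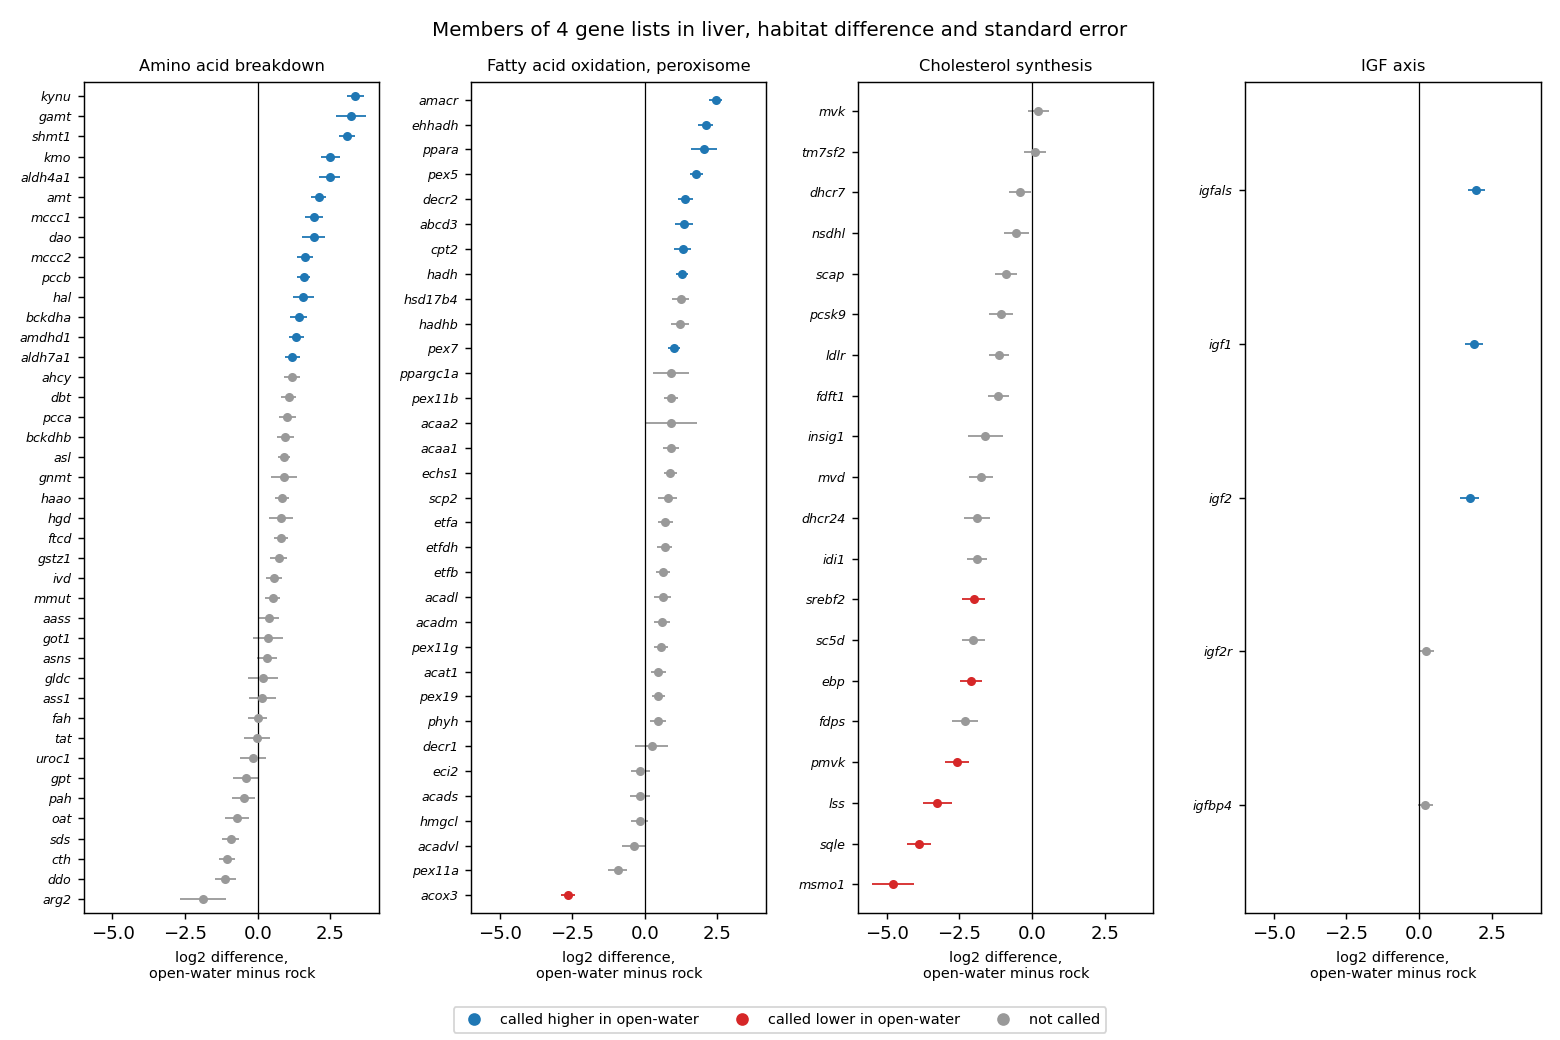
Habitat difference of tested members of 4 gene lists in liver (1 member of fatty acid oxidation is not shown), open-water minus rock on the log2(TPM + 1) scale, with its standard error; blue and red points were called with 1 sign in all 4 pairs. Most members of amino acid breakdown lie to the right of 0 and most members of cholesterol synthesis to the left; grey points far from 0, such as idi1, did not have 1 sign in all 4 pairs or did not pass the threshold.

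Cholesterol synthesis had 6 of 20 tested members lower in open-water livers and none higher, against 3.11% of all genes tested called lower, and the median difference was -1.82. With species as a random block none of the 6 was called (sqle adjusted p = 0.083). The counts of the single pairs depended on the rock-dweller. Between MZ and PG, the rock-dwellers, 11 of the 20 genes were called, all higher in MZ, against 1.37% of all genes. Against MZ, 11 genes were lower in DL and 11 in RL; against PG, none was lower and 1 was higher in DL. sqle, squalene epoxidase, had 1.69, 0.158 and 0.951 TPM in DL and 0.102 and 0.0467 TPM in RL, against 75.2, 143 and 314 TPM in MZ, while PG had 0.644, 4.15 and 1.53 TPM. idi1, an earlier step, had 21.6, 9.47 and 16.2 TPM in DL and 15.2 and 13.6 TPM in RL, against 242, 320 and 715 TPM in MZ and 6.25, 7.12 and 10.5 TPM in PG. For both genes PG overlapped the open-water species, while every MZ liver lay far above. msmo1 had 1.42 to 9.33 TPM in open-water livers, against 415, 719 and 1260 TPM in MZ and 5.25, 46.6 and 151 TPM in PG, so PG libraries 17 and 18 were above every open-water liver. ebp was the only called member without overlap between the habitats. None of the 20 genes was called in all 4 pairs, and srebf2, which induces the pathway, was called in the habitat contrast (log2 difference -2.00, standard error 0.40, adjusted p = 0.00491) with no pair past the threshold.

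**Figure D4:**
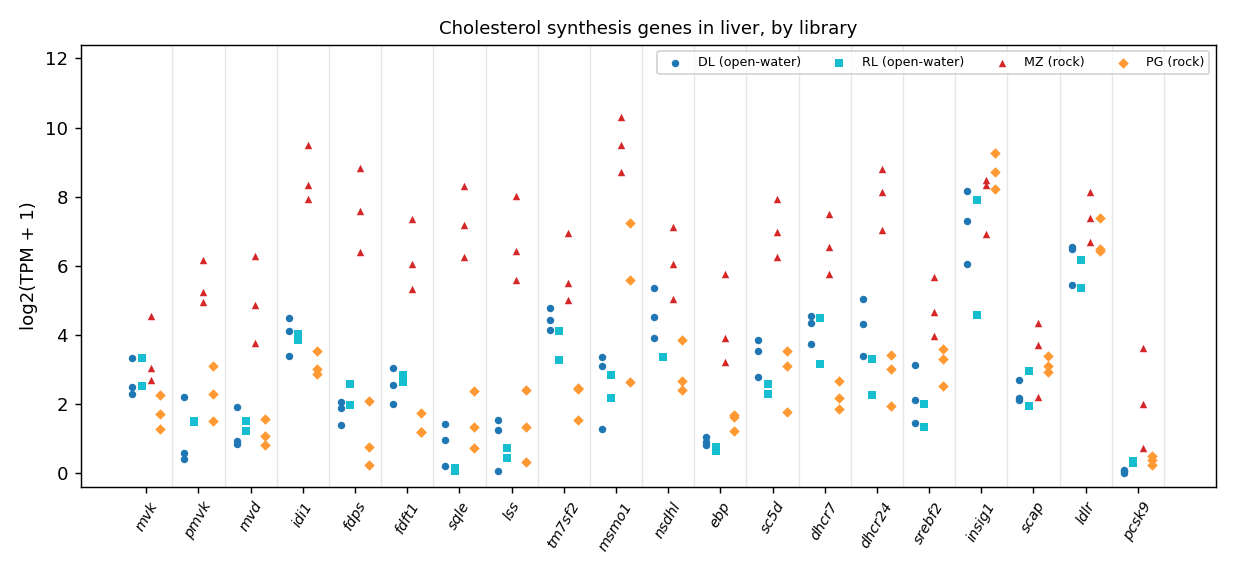
Liver level of the 20 tested cholesterol synthesis genes, on the log2(TPM + 1) scale; each point is 1 library, and colours and shapes mark the species. The MZ points stand above those of the other 3 species for sqle, idi1 and most other enzymes of the pathway, while PG lies near the open-water species.

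Growth factor genes of the insulin-like growth factor axis, which the liver secretes, were called higher in open-water livers in 3 of the 5 tested members, against 6.65% of all genes tested. With species as a random block none of them was called. By pair, 3 members were called higher in DL against PG, and none was called in DL against MZ, RL against MZ or RL against PG. igf1 had 164, 161 and 267 TPM in DL and 128 and 112 TPM in RL, against 50.4, 28.8 and 72.4 TPM in MZ and 30.2, 25.6 and 49.8 TPM in PG (log2 difference 1.90, standard error 0.31, adjusted p = 0.00181). igfals, which holds the circulating complex together, lay between 80.9 and 249 TPM against 16.9 to 60.2 TPM. igf2 lay between 13.04 and 29.2 TPM against 2.13 to 10.04 TPM. igf2r and igfbp4 differed by 0.26 and 0.22 and were not called. Without RL library 23 the count was 1.

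Among the other lists, no list had more than 4 called members. Among genes of acute phase and iron, stat3 and il6st of the interleukin-6 signal and blvra of haem breakdown were lower and fech of haem synthesis was higher, of 15 tested. Of all genes tested, 3.11% were called lower and 6.65% higher, and none of these 4 genes was called with species as a random block. By pair, 3 members were called lower in DL against PG and 1 in RL against PG, and none was called against MZ. These 2 pairs called 8.40% and 4.05% of all genes tested. il6st had 14.4 to 31.8 TPM in open-water livers, 35.8 to 61.7 TPM in MZ and 108 to 116 TPM in PG. fech lost its call under 13 of 21 alternatives, blvra under 7 of 21, il6st under 4 of 22 and stat3 under 3 of 22. stat3 had 40.8, 30.8 and 41.5 TPM in DL and 27.8 and 47.0 TPM in RL, against 73.3, 82.9 and 123 TPM in MZ and 107, 108 and 169 TPM in PG (log2 difference -1.51, standard error 0.27, adjusted p = 0.00293). Without RL library 23 none of the 3 lower genes was called. hspb1, a small heat shock protein, was higher, with 28.3, 37.4 and 25.3 TPM in DL and 20.3 and 10.3 TPM in RL, against 0.775, 1.33 and 3.08 TPM in MZ and 2.5, 1.0 and 5.71 TPM in PG (log2 difference 2.85, standard error 0.36, adjusted p = 0.000402). ddit4, a stress-induced inhibitor of growth signalling, was lower, with 9.41 to 57.7 TPM against 74.2 to 533 TPM (log2 difference -3.21). fgf19, a signal that represses bile acid synthesis, lay between 3.46 and 22.2 TPM against 0.191 to 1.17 TPM. Called higher were fgf19 and amacr of 5 tested bile acid genes, and hspb1 and fosb of 11 heat shock and stress genes. ddit4 was the only call among 9 hypoxia genes. By pair, hspb1, fgf19 and ddit4 were not called in RL against MZ or in RL against PG. No member was called among the 16 tested genes of complement and coagulation, the 63 cytosolic ribosomal proteins, the 5 clock genes, the 4 retinoid genes and the 4 genes of DNA methylation. Glucose and glycogen metabolism had 3 calls of 15 tested (gckr and gapdh beside pygl), and fatty acid synthesis 2 of 16 (srebf1 beside fads6). Only apoc2 was called of 12 lipoprotein genes, sult6b1 (lower) of 6 conjugation genes and ern1 (lower) of 24 endoplasmic reticulum stress genes. Only ndufa10 was called of 29 respiratory chain genes and psme3 (lower) of 26 proteasome genes. Of these, apoc2 lost its call under 17 of 22 alternatives, ndufa10 under 14, gapdh, srebf1 and ern1 under 12 and psme3 under 11, and gckr under 13 of 21. In sult6b1, MZ (0.550 to 1.80 TPM) overlapped the open-water livers (0.0879 to 0.905 TPM), while PG had 4.66 to 9.71 TPM. In ern1, MZ (9.02 to 24.2 TPM) overlapped the open-water livers (4.51 to 11.4 TPM), while PG had 22.1 to 46.3 TPM. In psme3, MZ (6.86 to 13.9 TPM) overlapped the open-water livers (3.25 to 10.6 TPM), while PG had 21.8 to 35.3 TPM. Many members of the gene lists are not listed under their symbols, so the counts cover only those that are.

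Muscle, 12 libraries with 3 of each species, gave values that the liver rule did not use. It came from 12 fish, of which 11 are those of the livers, so muscle is another tissue of the same fish and not a further set of fish. In muscle, 8.15% of 18101 tested genes were called higher and 8.23% called lower in open-water species. Of the 66 liver genes, 45 were tested in muscle and 12 were called higher there (26.7%), 1 was called lower and 32 had a difference above 0. Of the 30 lower liver genes, 22 were tested in muscle and 7 were called lower (31.8%), with none called higher. In the wider set of the liver habitat contrast, 238 of 879 higher genes and 169 of 420 lower genes tested in muscle were called the same way there. Of the called list members tested in muscle, 7 of 10 in amino acid breakdown and 5 of 11 in fatty acid oxidation were called the same way. In cholesterol synthesis it was 0 of 4, and in the growth factor axis 0 of 2. The genes with a symbol called in the same direction were agmat, amacr, ftcdnl1, galnt16, mocos, oplah, aifm2 and fcer1g. aifm2 had 10.1, 4.42 and 6.26 TPM in DL muscles and 3.35, 7.20 and 2.87 TPM in RL muscles, against 18.9, 40.7 and 37.9 TPM in MZ muscles and 50.4, 21.5 and 41.1 TPM in PG muscles. Its muscle difference was -2.44 (adjusted p = 0.00016), and the difference between the tissues was -0.54 (standard error 0.42, adjusted p = 0.428).

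A test of the difference between the tissues, over all 23 libraries taken as independent, called 7.87% of 20549 genes. It called 59 of the 66 higher and 21 of the 30 lower liver genes, and in all of these the habitat difference was larger in liver. With the fish as a block, 59 higher and 22 lower liver genes were called with a larger difference in liver. LOC101473063, a lower liver gene, was then called with a larger difference in muscle (liver minus muscle 1.74, adjusted p = 0.009 from limma). These genes were chosen for their liver difference, so their counts describe the set. pygl had at most 0.937 TPM in any muscle, and cebpa lay between 1.22 and 3.40 TPM in open-water muscles and between 1.89 and 4.37 TPM in rock muscles. Of the 65 named genes, 2 were called in opposite directions in the tissues, both from the heat shock and stress list. hspb1 was lower in open-water muscle, with 293, 170 and 200 TPM in DL and 157, 432 and 142 TPM in RL, against 835, 1045 and 1606 TPM in MZ and 2699, 1818 and 3120 TPM in PG (muscle difference -2.96, adjusted p = 5.02e-05; liver minus muscle 5.81, standard error 0.48, adjusted p = 1.96e-07). fosb was also lower in open-water muscle, with 1.2 to 30.6 TPM against 14.5 to 147 TPM, which overlap (muscle difference -2.41, adjusted p = 0.00815; liver minus muscle 5.23, standard error 0.71, adjusted p = 5.19e-05).

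stat3, il6st and ddit4 were lower in open-water fish in both tissues, with muscle differences of -1.55, -1.34 and -3.84 and no call for the difference between tissues (adjusted p = 0.961, 0.669 and 0.567). gapdh, a glycolytic enzyme, was higher in both and more so in muscle. It had 2521, 3032 and 3891 TPM in DL livers and 1143 and 2311 TPM in RL livers, against 774, 1322 and 1346 TPM in MZ livers and 836, 1021 and 817 TPM in PG livers, which overlap. In muscle it lay between 14708 and 84198 TPM in open-water fish and between 578 and 5331 TPM in rock fish (muscle difference 4.85, adjusted p = 2.95e-05; liver minus muscle -3.67, adjusted p = 0.000162). Whether another copy of gapdh takes reads in some species was not tested.

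**Figure D5:**
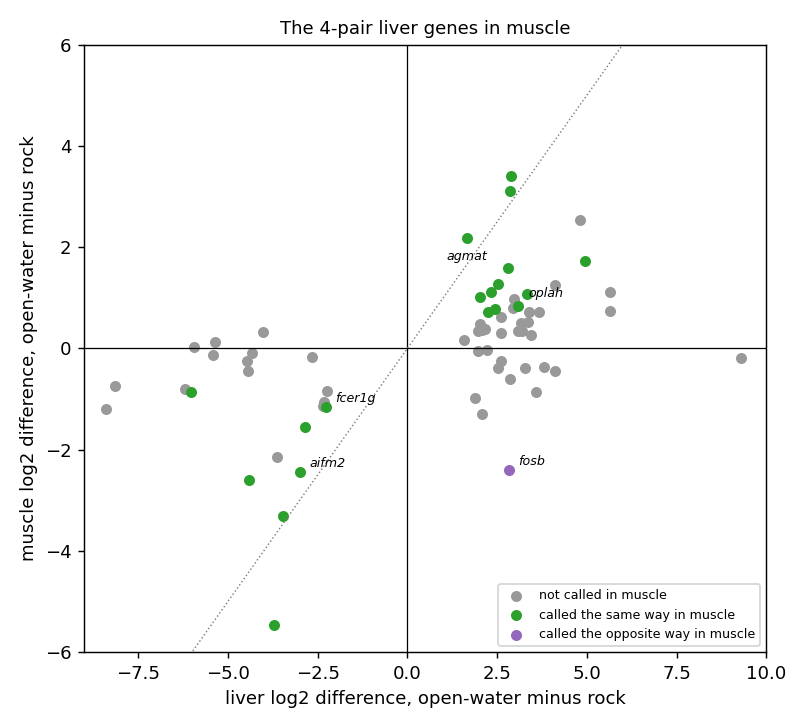
Habitat difference in muscle against that in liver, open-water minus rock on the log2(TPM + 1) scale, for those of the 96 liver genes that were tested in muscle; green points were called the same way in muscle (12 higher and 7 lower), the purple point, fosb, was called the opposite way, and the dotted line marks equal differences. Most points lie nearer to the horizontal axis than to the dotted line.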

How the data were processed

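RNA of livers and muscles of wild-caught fish was sequenced with a stranded kit after removal of ribosomal RNA. The authors trimmed the reads with Trim Galore, assigned them with kallisto to the M. zebra UMD2a transcriptome and deposited TPM values for 29676 genes; read counts were not analysed here. The table's columns name species and a library number that the labels do not give, so libraries were grouped by species and are called by that number. The study's sample list gives the same numbers with a fish code, which ties liver and muscle of 11 fish. The authors' species means and the list of methylated regions were not used. A gene was tested if 2 or more libraries reached 1 TPM. Values were log2-transformed after adding 1 and fitted by species in limma 3.58.1 (R 4.3.3), allowing the prior variance to follow the mean, with Benjamini-Hochberg adjustment inside each contrast and a limit of 0.01. The fit was tested on simulated data. Tables and figures used Python 3.11.15, numpy 2.4.6, pandas 2.3.3 and matplotlib 3.10.9.

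Named genes are, among those called in all 4 pairs without overlap and with a mean of 10 TPM or more in each higher species, the 12 largest differences in each direction and the 10 largest with a symbol, and up to 4 called members of each pathway list by smallest p. The lists, the genes and the comparison were chosen with earlier results of these data known. Gene names that are bare numbers in the table, 12 in all, were left unnamed. Alternatives were other pseudocounts, filters, scalings, thresholds and fits, and leaving out each library; those for the gene lists, and leaving out libraries in the tests of muscle and of both tissues, were chosen after seeing the data. The values of 1 member of the fatty acid oxidation list are not reported here, although it is in the counts.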

Additional observations from a re-analysis of the deposited data

Results flagged for a closer look

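For 50 of the 65 named genes, the habitat difference in liver differed from that in muscle by the test of that difference in limma (open-water minus rock in liver, minus the same in muscle, on the log2 scale), so they are listed with that value. These genes were chosen for their liver difference, and several of them, such as pygl, were near 0 TPM in every muscle. Among genes of glycogen, fatty acids and sterol export the values were 4.26 for pygl, 2.14 for ppp1r3c, 2.54 for srebf1, 4.18 for fads6, 3.39 for abcg5 and 2.99 for abcg8. gapdh, higher in open-water fish in both tissues, had -3.67, since its difference was larger in muscle. Enzymes of amino acid and fatty acid breakdown had 3.21 for kynu, 2.55 for kmo, 1.77 for shmt1, 1.58 for amt, 2.68 for glyctk, 1.66 for amacr and -2.47 for acox3. Cholesterol synthesis genes, which were high in livers of MZ, had -3.84 for sqle, -3.15 for lss, -4.28 for msmo1 and -1.83 for pmvk. Secreted growth factors and the binding subunit igfals gave 2.02 for igf1, 2.80 for igf2, 2.09 for igfals and 2.58 for fgf19. In a pair of stress genes, which were called in opposite directions in liver and muscle, the values were 5.23 for fosb and 5.81 for hspb1. The other genes with a symbol had 4.56 for cebpa, 3.19 for slc9a7, -3.18 for cep78, -4.33 for trnau1ap, -6.99 for lg15h6orf58 and -1.79 for sult6b1. Of the genes known by locus number, those higher in open-water livers had 3.92 for LOC101474383, 2.85 for LOC101482452, 6.10 for LOC101483542, 4.91 for LOC101484182, 9.49 for LOC101485633, 5.65 for LOC101488037, 4.54 for LOC105940527, 4.93 for LOC106675939 and 3.22 for LOC106676445. Those lower in open-water livers had -5.49 for LOC101477063, -5.17 for LOC101477125, -5.33 for LOC101485723, -5.97 for LOC101487854, -7.19 for LOC105940518, -4.23 for LOC112429825, -5.41 for LOC112430399, -4.01 for LOC112430458, -5.28 for LOC112430460, -5.62 for LOC112434913 and -7.39 for LOC112436627.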

How the results depend on the processing

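No paired analysis was possible because livers of different species come from different fish, and the columns carry no replicate number of the labels. Across tissues, 11 of 12 fish gave both a liver and a muscle. With the fish as a block (limma, correlation within a fish 0.121), 59 higher and 22 lower liver genes had a larger difference in liver, against 59 and 21 without it; of the 65 named genes none lost its call for the difference between tissues and 2, pex5 and ern1, gained one. Counts are given as genes called in all 4 pairs (66 higher and 30 lower), then genes called in the habitat contrast (1104 and 516), then list members. With a pseudocount of 5 the higher genes numbered 42. Without a filter they were 34 and 17, the lower habitat genes 325 and fatty acid oxidation 5; with a mean of at least 5 TPM the habitat genes were 521 and 319 and the immune markers 0. Quantile normalization gave 112 and 81, 1226 lower habitat genes and 7 immune markers, and size factors gave 81 lower genes, 1506 lower habitat genes and 7 immune markers. At an adjusted p under 0.05 the counts were 223 and 107, 2586 and 1280, and 7 immune markers. A difference of at least 50 TPM in every pair left 11 and 12, 69 and 54, with 5 genes of amino acid breakdown, 0 of fatty acid oxidation, 1 of cholesterol synthesis, 1 of acute phase and 0 immune markers. Each pair of species fitted alone gave 3 and 3, from fewer samples in each fit. Species as a random block (correlation within species 0.217) gave 202 and 63, with 5 genes of amino acid breakdown, 3 of fatty acid oxidation, 0 of cholesterol synthesis, 0 of the growth factor axis, 0 of acute phase and 1 immune marker (4180 genes at an unadjusted p under 0.05 in limma). Species means as the only replicates gave 0 for the habitat contrast and for every list (2957 genes at an unadjusted p under 0.05 in limma). No named gene changed sign under these alternatives, but the balance of calls turned: the share of higher genes in the habitat contrast was 68.1% with TPM as deposited and 46.3% with size factors, and the median difference over all genes 0.13 and -0.04. Of the 65 named genes, 62 or more kept their call under each other pseudocount and scaling, 57 without a filter, 45 with species as a random block and 0 with species means. Apart from those that follow from fewer genes or samples tested, the cause of these changes was not tested.

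Leaving out 1 library gave 13 to 60 genes higher and 12 to 39 lower in all 4 pairs, and 517 to 1171 and 179 to 689 in the habitat contrast. The higher habitat genes numbered 517 without RL library 23, 564 without RL library 24, 680 without MZ library 14, 706 without PG library 16 and 621 without PG library 17; the lower numbered 307 without DL library 5, 179 without RL library 23, 330 without MZ library 14 and 342 without PG library 17. The lists ranged from 8 to 14 (amino acid breakdown), 4 to 9 (fatty acid oxidation), 4 to 7 (cholesterol synthesis), 1 to 3 (growth factor axis), 0 to 3 (acute phase) and 1 to 5 (immune markers). Muscle calls of the liver genes ranged from 8 to 11 higher and from 5 to 8 lower, and calls of a larger difference in liver from 54 to 61 and from 20 to 22. The values limit the reading in further ways: depth is unknown in TPM, RL has 2 livers, each habitat has 2 species, and reads of all species were assigned to the transcriptome of M. zebra.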

Other observations

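Markers of the exocrine pancreas varied widely between single livers. They summed to 244, 302 and 212 TPM in DL and 652 and 239 TPM in RL, against 11.9, 526 and 70.8 TPM in MZ and 38.8, 155 and 60.8 TPM in PG, so MZ library 14 lay with the open-water livers. The adipocyte marker cidec had 13.2 to 66.4 TPM in open-water livers and 22.9 to 183 TPM in rock livers. Skeletal muscle markers stood at 85.5 TPM in DL library 5, against 1.54 to 15.04 TPM in the other open-water livers and 16.7 to 36.01 TPM in rock livers. In DL library 5 most of the sum was myl1 (77.9 TPM). In rock livers most was mb (14.2 to 31.3 TPM), with 1.44 to 4.76 TPM of myl1. insig1, which holds back the activation of cholesterol synthesis and was not called, lay between 22.9 and 286 TPM in open-water livers and between 119 and 607 TPM in rock livers.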
